A study of Homo sapiens with 56 samples.

Results

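UWB1.289 is an ovarian serous carcinoma cell line known for lacking functional BRCA1, a tumour suppressor that directs the repair of broken DNA by homologous recombination. The series profiled total RNA of 28 ovarian cancer cell lines on Affymetrix Gene ST arrays, with 2 arrays a line and 56 in all, and the values are log2 intensities. The 2 arrays labelled UWB1.289 were set against the means of the other 27 lines (51 arrays), over 18377 genes that a probe set names alone. An array each of HEYC2 (replicate 1), OVCA420 (replicate 1) and OV56 (replicate 2) was left out. The 3 were each most like another of the 3 (correlation over genes 0.917 to 0.936) and less like their own duplicates (0.615 to 0.806). The kept duplicates were also more like an array of another line (0.915 to 0.984), so that these correlations do not tell which array of a line carries the right label.

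UWB1.289 was grown in a mixture of RPMI and MEGM, a medium for mammary epithelial cells, with 3% FBS, and no other line was. Of the other lines, 10 were grown in DMEM, 9 in RPMI, 7 in DMEM/F12 and 1 in MCDB105/M199, with 5% to 20% FBS. The line and its medium therefore cannot be told apart in any value given here. The labels name no agent added to any line, and UWB1.289 stands for 1 line whose replicates are not stated to be separate cultures, so that p-values between arrays measure only the spread between duplicates, which may be technical.

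The 2 UWB1.289 arrays correlated at 0.994 over genes and were each other's most similar array. Their medians over all probe sets were 6.04 and 5.97, within the range of 5.96 to 6.31 over all arrays but near its lower end. The median difference between UWB1.289 and the mean of the other lines was -0.09 over all genes, and differences below are given without a correction for it. UWB1.289 was the highest of the 28 lines in 574 genes and the lowest in 1516, while the other lines were the lowest in 358 to 1444 genes. After a further quantile normalization it was the lowest in 970 genes, so that the number of lowest ranks depends on the scaling of the arrays.

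Carcinoma cells of the Mullerian tract keep a set of lineage genes, among them PAX8 and keratins of simple epithelia, while each line gains and loses further genes on its way through tumour growth and culture. Genes that a line does not use are still read on an array, at background level, where values have little meaning as amounts. Levels under 5.25, the lower quartile of all gene values, are called background below.

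At the level of arrays, 774 genes were higher in UWB1.289 than the mean of the other lines (4.21% of the genes tested) and 423 were lower (2.3%), by at least 1 log2 unit with a limma adjusted p under 0.05. That test sets the difference against the spread between duplicate arrays. A second limma fit on the 28 line means set it against the spread between lines, and there 15 genes were higher (0.0816%) and 5 lower (0.0272%). Genes above every other line were counted where both UWB1.289 arrays exceeded the highest of the 27 line means by at least 0.5 log2 units, which held for 31 genes (0.169%). Genes below every other line, by the mirror rule, numbered 18 (0.0979%). All 31 and 17 of the 18 also passed the test between arrays, which rests on the same arrays and adds no separate support.

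The same count was taken for the other lines, as a description. Over the 24 other lines with both arrays, it ran between 17 and 218 genes above all lines (median 74.5) and between 5 and 160 below (median 17). UWB1.289 was thus among the lines with few genes above all others, and close to the middle for genes below. By correlation of centred line means over genes it was most like JHOS3 (0.146), EFO21 (0.137) and JHOS4 (0.135), all of them weak values that share the array platform.

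NETO1, an auxiliary subunit of kainate-type glutamate receptors in neurons, had the widest gap upwards. Its level was 6.17 and 6.47 in the UWB1.289 arrays, against a lowest value of 3.25, a median of 3.56 and a highest of 4.04 (A2780) over the other lines. The other lines were all at background and UWB1.289 alone was above it, with a difference of 2.75 ± 0.13 (SE, limma adjusted p = 3.93e-20 between arrays and 2.29e-10 between lines). CLDN16, a claudin of kidney tight junctions needed for magnesium uptake, had 13.49 and 13.62 in UWB1.289. In the other lines it ran between 4.66 and 11.35 with a median of 7.16, so that OAW42, the next line, was still 2.21 below the UWB1.289 mean. Because the other lines were spread widely, the difference of 5.91 ± 0.18 passed the limma test between arrays (adjusted p = 1.38e-21) and not that between lines (adjusted p = 0.825).

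A further pair of genes stood at background in the other lines. MYL2, the regulatory myosin light chain of heart and slow muscle, had 7.24 and 7.21 in UWB1.289, against 3.88 to 5.12 (median 4.50) in the other lines. HEPHL1, a copper-dependent ferroxidase, had 6.66 and 6.93, against 4.002 to 5.093 (median 4.24). Both passed limma's test between lines, with adjusted p = 1.08e-05 for MYL2 and 1.19e-07 for HEPHL1.

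RGCC, a regulator of the cell cycle, had 11.20 and 11.21 in UWB1.289, against 5.40 to 10.25 (median 6.45) in the other lines, of which TOV112D was the highest. CALB1, the calcium buffer calbindin, had 10.14 and 10.24, against 3.83 to 9.50 (median 4.66), with SKOV3 next. In both genes UWB1.289 topped a wide range that a few other lines shared, and the differences were 4.33 ± 0.11 and 4.61 ± 0.18. The gap to the next line was 0.96 for RGCC and 0.69 for CALB1, the second not among the 15 widest.

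The rest of the 15 widest gaps upwards were smaller than those of NETO1, CLDN16, MYL2 and HEPHL1. They held AJAP1 (an adherens junction protein), ST6GAL2 (a sialyltransferase), ABCA11P (a pseudogene), KBTBD12, RNF212 (a factor of meiotic crossover), MKX (the tendon homeobox factor Mohawk), CTHRC1 (a secreted collagen-like protein), KLHL35, ZNF681 and POLN (a DNA polymerase), with gaps of 0.75 to 1.17. AJAP1 differed by 3.30 ± 0.13, RNF212 by 3.13 ± 0.14 and MKX by 3.02 ± 0.14. Among the other genes above all lines were several genes of the cell surface or secreted, picked here after their values were seen. They were IL12RB2 (a subunit of the receptor for interleukin-12), IL1RL2 (the receptor for interleukin-36), ALKAL2 (a ligand of the kinase ALK), SLCO2A1 (a prostaglandin transporter) and NOG.

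Beyond those 31, limma's test between lines also called LRRC2, LRRIQ4, MAJIN, MCF2 and RYR2 higher, all of which were highest in UWB1.289 by less than 0.5 on at least 1 array. RYR2, the calcium release channel of heart muscle, had 6.08 and 6.07 in UWB1.289, against 3.93 to 5.99 (median 4.12). One line, CH1, reached almost the same level. Without replicate 2 of UWB1.289 the differences of LRRC2, LRRIQ4 and MAJIN were 0.95, 0.83 and 0.97, under the minimum of 1.

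**Figure D1:**
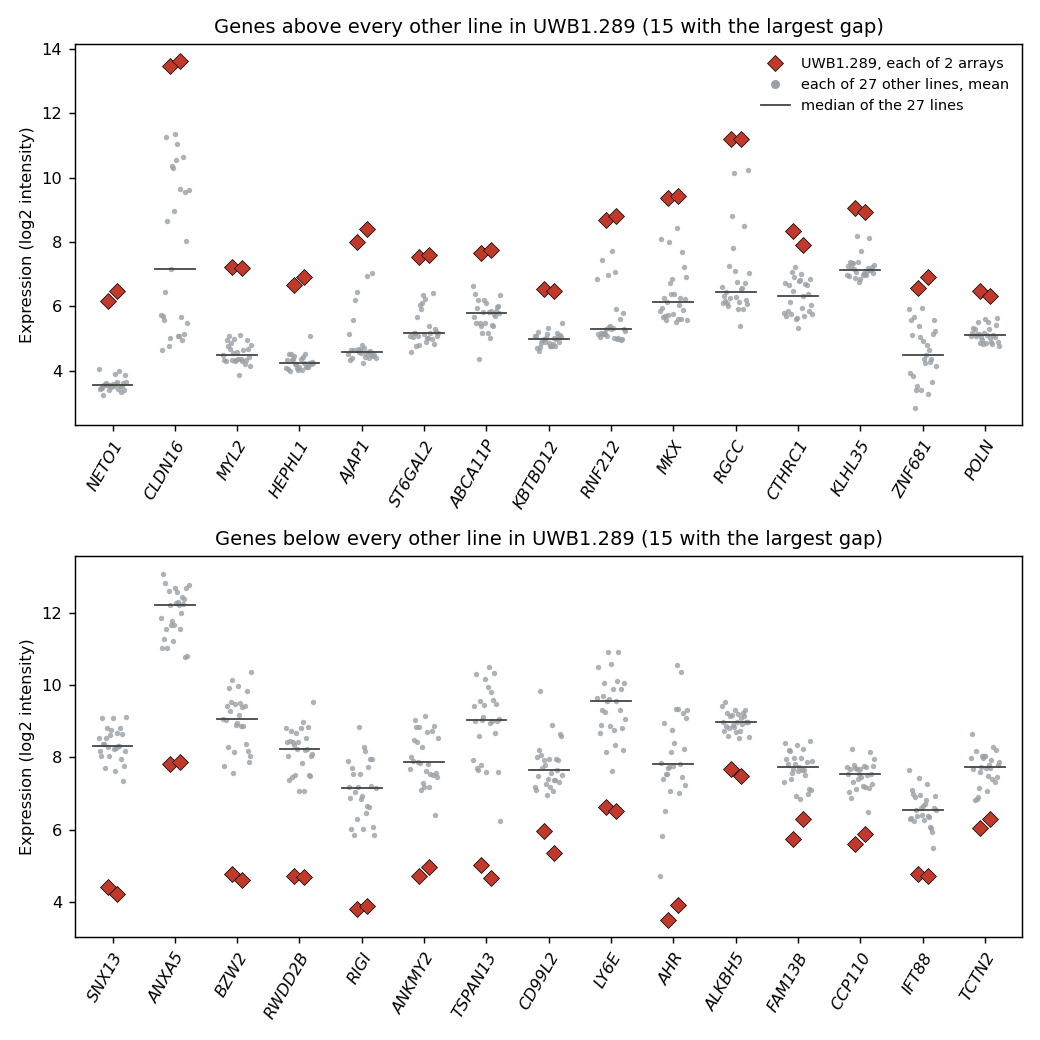
Expression (log2 intensity) of the 15 genes with the widest gap above all other lines (upper panel) and below them (lower panel). Diamonds are the 2 UWB1.289 arrays, grey points the means of the 27 other lines and bars their medians; NETO1 is at background in all other lines, while CLDN16 spans 4.66 to 11.35 in them and lies above 13 in UWB1.289.

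Each of the 10 widest gaps downwards exceeded the upward gap of the same rank, and the next ones did not. SNX13, a sorting nexin of the endosome, had 4.42 and 4.22 in UWB1.289, against 7.35 to 9.12 (median 8.33) in the other lines. The lowest other line, PEO1, was 3.04 above UWB1.289, and the difference of -4.04 ± 0.15 passed both tests (limma adjusted p = 4.51e-21 between arrays, 8.26e-06 between lines). ANXA5, which binds phosphatidylserine on membranes in the presence of calcium, had 7.82 and 7.88, against 10.79 to 13.09 (median 12.21). ANXA5 was 17.5-fold lower in UWB1.289 than the mean of the other lines (difference -4.13 ± 0.06, adjusted p = 5.18e-37 between arrays, 0.0018 between lines), yet still above background.

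BZW2, a mimic of the initiation factor eIF5, had 4.77 and 4.60 in UWB1.289, against 7.56 to 10.37 (median 9.07), and RWDD2B, a protein with an RWD domain, had 4.70 and 4.69, against 7.08 to 9.53 (median 8.23). Both were at background in UWB1.289 and expressed in all 27 other lines. The fifth gene called lower between lines was ALKBH5, which removes methyl groups from adenosine in RNA, with 7.68 and 7.49 against 8.54 to 9.54 (median 8.97). Its difference was small, -1.41 ± 0.07, and was called (adjusted p = 0.028 between lines) because the other lines lay close together.

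RIGI, the cytoplasmic sensor of viral RNA, had 3.79 and 3.88 in UWB1.289, against 5.84 to 8.83 (median 7.15), a difference of -3.27 ± 0.12. LY6E, a lipid-anchored surface protein, had 6.63 and 6.53, against 7.62 to 10.91 (median 9.55), and CD99L2, a relative of the adhesion protein CD99, had 5.96 and 5.36, against 6.96 to 9.83 (median 7.64). None of the 3 passed the test between lines (limma adjusted p = 0.144, 0.392 and 0.433), although both arrays of UWB1.289 lay below all other lines. FAM13B, ZNF175 and TNNT1, the slow skeletal troponin T, had gaps of 0.51 to 0.83. DNAAF3, a factor of dynein assembly, was the 1 gene of the 18 that did not reach a difference of 1 log2 unit (-0.998 ± 0.100). It did so with all 56 arrays (-1.06) and without replicate 2 of UWB1.289 (-1.13).

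5 of the 18 genes, ANKMY2, BZW2, TSPAN13, AHR and SNX13, are neighbours on chromosome 7, as placed by the order of RefSeq genes. The run of neighbours was singled out after the values were seen. Between SOSTDC1 and SNX13 lie 8 measured genes, of which 7 were lowest of the 28 lines in UWB1.289 and 7 passed the test between arrays. TSPAN13, a tetraspanin, had 5.02 and 4.65 in UWB1.289, against 6.24 to 10.50 (median 9.03), and ANKMY2, a partner of ciliary signalling proteins, had 4.73 and 4.96, against 6.41 to 9.14 (median 7.88). AHR, the aryl hydrocarbon receptor, a ligand-activated transcription factor, had 3.49 and 3.90, against 4.71 (A2780) to 10.57 (OV7) with a median of 7.81. All 3 were at background in UWB1.289, with differences of -4.11 ± 0.10, -3.15 ± 0.10 and -4.34 ± 0.10.

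AGR2, a disulfide isomerase of secretory epithelia, and SOSTDC1, a secreted antagonist of BMP and WNT ligands, were expressed in only some of the other lines. AGR2 had 3.37 and 2.86 in UWB1.289, against 3.16 to 10.90 (median 4.75), and SOSTDC1 had 3.26 and 3.24, against 3.32 to 7.91 (median 3.69). UWB1.289 overlapped with the low lines in AGR2 and lay a little under them in SOSTDC1. AGR3 was at background almost everywhere, with 2.46 and 2.36 against 2.36 to 4.01, and was not called (difference -0.29).

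The genes on either side were for the most part not called lower. Towards one end MEOX2 differed by -0.39 (rank 27 of 28) and AGMO by -0.43, and towards the other PRPS1L1 differed by -0.16 and HDAC9, a histone deacetylase, by 0.73. In the other lines AGMO and PRPS1L1 had means at background (3.53 and 5.04), and MEOX2 was at 9.85 in A2780 and at most at 5.85 in the rest. A lower level could hardly show in these 3 genes, so that they do not mark where the run ends. HDAC9 and ETV1, with means of 6.37 and 6.30 in the other lines, were not called (0.73 and -0.21). Of the 12 flanking genes examined, 1 was called lower (SCIN, -1.33 ± 0.24, rank 27 of 28) and none was the lowest line. DNA copy number was not analysed here.

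**Figure D2:**
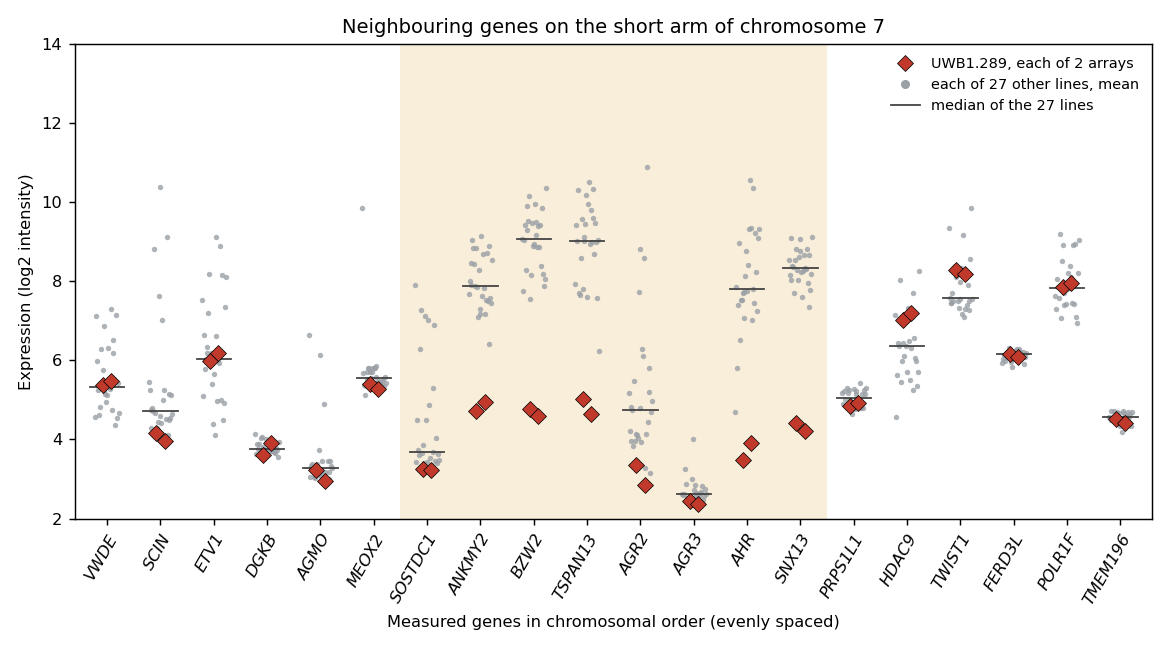
Expression (log2 intensity) of 20 measured genes in their order on the short arm of chromosome 7, evenly spaced. Diamonds are the 2 UWB1.289 arrays, grey points the 27 other lines and bars their medians; in the shaded run UWB1.289 lies at the bottom in 7 of 8 genes, and outside it among the other lines.

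AHR binds its ligand in the cytoplasm, pairs with ARNT in the nucleus and switches on genes such as CYP1A1 and CYP1B1, cytochromes that oxidise polycyclic hydrocarbons and oestrogens. These genes were looked up after AHR had been seen to be low. CYP1B1 had 4.28 and 4.39 in UWB1.289, against 4.55 to 11.95 (median 7.46), a difference of -3.72 ± 0.11 (limma adjusted p = 1.59e-26 between arrays). CYP1A1 had 4.34 and 4.51, against 4.66 to 8.91 (median 5.40), a difference of -1.29 ± 0.15. UWB1.289 was the lowest line in both, with HEY next for CYP1B1 and SKOV3 for CYP1A1 only slightly above it, and neither passed the test between lines (adjusted p = 0.899 and 0.912).

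TIPARP, a mono-ADP-ribosyltransferase that AHR also induces, went the other way. It had 10.84 and 11.01 in UWB1.289, against 6.16 to 10.79 (median 8.94), and UWB1.289 was the highest line (difference 1.80 ± 0.09). ARNT differed by -0.16 and ranked 16 of 28, NQO1 differed by -0.91 and ranked 21, and ARNT2 was the lowest line at -1.18 ± 0.13. Of 7 measured genes on the AHR list, 1 was higher (14.3%, against 4.21% of all genes) and 3 were lower (42.9%, against 2.3%), with a median difference of -0.91, against -0.09 over all genes.

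The promoters of CYP1A1 and TIPARP, which moved in opposite directions, are shown because both hold the core of the AHR response element, GCGTG, read on both strands as GCGTG or CACGC and printed in capitals. They are RefSeq sequences of build GRCh38.p14, with 250 bases before the start of the gene and 50 after it, at chr15:74725479-74725778 (minus strand) and chr3:156674340-156674639 (plus strand). The core occurs in 36.3% of all promoters of this length, 1 time in CYP1A1 and 2 times in TIPARP, and a match describes the letters only.
CYP1A1: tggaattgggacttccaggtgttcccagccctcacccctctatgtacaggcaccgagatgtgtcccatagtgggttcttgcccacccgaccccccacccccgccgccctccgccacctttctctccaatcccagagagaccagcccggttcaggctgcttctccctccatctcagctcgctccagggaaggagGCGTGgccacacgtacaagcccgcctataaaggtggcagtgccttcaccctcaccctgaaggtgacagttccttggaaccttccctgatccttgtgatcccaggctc
TIPARP: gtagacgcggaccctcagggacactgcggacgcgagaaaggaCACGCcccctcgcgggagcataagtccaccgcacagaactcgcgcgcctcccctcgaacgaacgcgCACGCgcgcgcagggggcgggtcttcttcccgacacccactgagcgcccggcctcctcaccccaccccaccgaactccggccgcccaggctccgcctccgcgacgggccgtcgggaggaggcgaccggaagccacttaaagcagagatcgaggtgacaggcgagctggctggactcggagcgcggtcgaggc

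Most other genes with wide gaps downwards had no called neighbours. Around ANXA5 the 3 measured genes on each side differed by -0.66 to 0.06 and none of the 6 was called. All but EXOSC9, a subunit of the RNA exosome, had means at background in the other lines (4.22 to 5.07), where a lower level could hardly show. EXOSC9 differed by -0.61 and ranked 26 of 28. Around RIGI the 6 neighbours differed by -0.67 to 0.17, and again none was called. Around RWDD2B they differed by -0.85 to 1.07, and 1, MAP3K7CL, was higher (1.07 ± 0.10) and the highest of the 28 lines. Around CD99L2 the neighbours differed by -0.002 to 0.64, and around LY6E by -0.65 to -0.02, with none called in either. UWB1.289 was nevertheless the lowest line in 2 of the 6 around LY6E. Among those 6, GML and LY6S-AS1 had means at background in the other lines (3.95 and 5.18). Around ALKBH5 they differed by -1.06 to 0.25, and 1 of the 6 was lower and the lowest of the 28 lines.

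The promoters of ANXA5 and RIGI are shown as those of 2 genes that were low in UWB1.289 with no called neighbour, with each CG dinucleotide, the site of DNA methylation, in capitals. They lie at chr4:121696931-121697230 and chr9:32526147-32526446 (GRCh38.p14, both on the minus strand). The ANXA5 promoter holds 36 CG and the RIGI promoter 27, numbers reached by 12.5% and 27.9% of all promoters of this length. Methylation of UWB1.289 was not analysed here.
ANXA5: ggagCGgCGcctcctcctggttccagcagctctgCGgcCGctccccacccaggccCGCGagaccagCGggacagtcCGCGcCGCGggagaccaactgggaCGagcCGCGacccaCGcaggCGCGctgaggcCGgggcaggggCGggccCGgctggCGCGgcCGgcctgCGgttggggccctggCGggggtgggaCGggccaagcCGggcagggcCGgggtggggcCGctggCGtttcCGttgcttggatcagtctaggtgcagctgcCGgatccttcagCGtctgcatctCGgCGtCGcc
RIGI: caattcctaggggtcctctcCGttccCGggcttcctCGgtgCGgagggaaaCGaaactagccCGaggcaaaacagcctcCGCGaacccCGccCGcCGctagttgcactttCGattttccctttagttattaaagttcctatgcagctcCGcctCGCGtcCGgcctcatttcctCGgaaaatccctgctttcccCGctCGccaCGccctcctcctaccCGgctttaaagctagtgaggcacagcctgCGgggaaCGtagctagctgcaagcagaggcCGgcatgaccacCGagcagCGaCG

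Of 11 annexins measured, ANXA5, ANXA6 and ANXA10 were lower (27.3%, against 2.3% of all genes) and ANXA3 was higher (9.09%, against 4.21%). The list was drawn up after ANXA5 was seen. ANXA6 had 7.53 and 7.44 in UWB1.289, against 6.54 to 11.33 (median 9.47). ANXA1 and ANXA2 had 12.05 and 12.14, and 12.34 on both arrays, close to their medians of 11.99 and 12.17 over the other lines. ANXA7 was the highest line (difference 0.98 ± 0.06), just short of the minimum difference, which it reached with all 56 arrays (1.09) and without replicate 1 of UWB1.289 (1.03).

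BRCA1 was the lowest of the 28 lines in UWB1.289, with 5.99 and 6.45 on the 2 arrays, against 6.76 (OVCAR3) to 8.80 (JHOS2) and a median of 7.79 over the other lines. The groups did not overlap, although one array lay only 0.31 under OVCAR3, and the difference was -1.63 ± 0.12 (limma adjusted p = 7.59e-14 between arrays, 0.746 between lines). With the 3 arrays left out above included, the difference was -1.45 and the call was lost (adjusted p = 0.0556 between arrays). UWB1.289 still gave a signal for BRCA1 above background, 3.09-fold lower than the mean of the other lines. None of 12 measured neighbours of BRCA1 on chromosome 17 was called in either direction, and their median difference was 0.23.

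Of 32 measured genes of homologous recombination and the Fanconi anaemia pathway, 1 was higher, PALB2, and 1 was lower, BRCA1. Each is 3.12% of the list, near the shares over all genes (4.21% higher and 2.3% lower). The median of the list was -0.11, against -0.09 over all genes. PALB2, which links BRCA1 to BRCA2, had 8.72 and 8.85 in UWB1.289, against 6.77 to 8.31 (median 7.71), and was the highest of the 28 lines (difference 1.12 ± 0.09). Its neighbours were high as well. UBFD1, NDUFAB1 (a subunit of mitochondrial complex I), DCTN5 (dynactin) and PLK1 (a mitotic kinase) were each highest in UWB1.289, with differences of 0.84, 0.87, 1.02 and 0.93, of which that of DCTN5 was called, though not without replicate 2 of UWB1.289 (0.95). The next gene on one side, ERN2, differed by -0.08 and was near background in the other lines (mean 5.29). On the other side EARS2 differed by 0.385 without being the highest line, and GGA2 beyond it differed by 0.88 and ranked 3 of 28. Where the high stretch ends is not settled by these genes.

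Of 14 genes of end joining and the 53BP1 pathway, which competes with BRCA1 over how breaks are repaired, TP53BP1 alone was called, as lower (7.14%, against 2.3% of all genes). It had 6.76 and 6.69, against 6.69 to 8.65 (median 7.92), and ranked 27 of 28 (difference -1.18 ± 0.08), with HEY at the same level. Of 19 proliferation genes none was called, with a median of -0.13.

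The labelled cell type was checked against its markers. EPCAM, the epithelial cell adhesion molecule, had 10.52 and 10.53 in UWB1.289, against 4.31 to 14.53 (median 8.92). Its difference of 1.62 ± 0.52 passed the test (limma adjusted p = 0.0109 between arrays) with both arrays but not with replicate 1 or 2 alone left out (0.0821 and 0.0958). The keratins of simple epithelia KRT7 (11.86 and 11.97, median 9.68 in the other lines), KRT8 (12.92 and 13.06, median 12.36) and KRT18 (13.09 and 13.13, median 12.17) were all higher, by 2.38 ± 0.19, 1.02 ± 0.21 and 1.24 ± 0.15. KRT23, of the same list of 6, was lower (4.50 and 4.23, against 3.78 to 11.55, median 5.47, difference -1.90 ± 0.16) and ranked 27 of 28. The other 2 were not called, so that 50% of the list was higher and 16.7% lower, against 4.21% and 2.3% of all genes. PAX8, the factor that marks the Mullerian lineage, had 10.10 and 10.19, against 6.29 to 10.95 (median 9.13). SOX17, MUC16 (CA-125), MSLN (mesothelin) and CLDN3 were also higher, so that 5 of 13 Mullerian and serous carcinoma genes were higher (38.5%, against 4.21% of all genes) and 1, MECOM, was lower (7.69%, against 2.3%). The list as a whole was not raised, with 7 positive and 6 negative differences and a median of 0.05, against -0.09 over all genes. Without replicate 2 of UWB1.289 the differences of KRT8, MUC16 and MSLN were 0.95, 0.95 and 0.88, and without replicate 1 that of MECOM was -0.92, all under the minimum. Among the genes called higher with values given here, ranks ran from 3 to 8 of 28. For those genes UWB1.289 lay in the upper part of the lines and not beyond them, while for KRT23 it lay near the bottom.

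WT1, a factor of the ovarian surface and of serous carcinoma, was at 5.97 and 5.69, against 5.83 to 9.76 (median 6.30), and ranked 27 of 28 (difference -0.98 ± 0.13, not called, but -1.11 and called without replicate 1). CDH1, the epithelial cadherin, had 6.68 and 6.83, against 3.88 to 11.69 (median 7.17), and did not reach the threshold. VIM, the mesenchymal filament, had 9.47 and 9.51, against 4.81 to 13.31 (median 11.02). ZEB1, a repressor of epithelial genes, was lower (5.45 and 5.16, against 4.63 to 8.73, difference -1.34 ± 0.18).

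Beside these epithelial genes some mesenchymal genes were higher too. FN1, fibronectin, had 12.73 and 12.85, against 5.13 to 13.81 (median 9.79), and TAGLN, an actin-binding protein of smooth muscle, had 10.12 and 10.13, against 5.37 to 11.57 (median 6.83). COL1A2 had 9.79 and 9.60, against 5.62 to 9.80 (median 6.04), and A2780 alone was as high. COL1A1, whose product forms the same collagen trimer, was the lowest of the 28 lines at 7.10 and 6.60, against 6.86 to 10.21 (median 7.39), a difference of -0.94 that was not called, but was without replicate 1 (-1.19). Of 13 mesenchymal cytoskeleton and cadherin genes, 4 were higher (FN1, TAGLN, CDH2 and SPARC) and 1 lower (S100A4, though not without replicate 2, at -0.98). The shares were 30.8% higher and 7.69% lower, against 4.21% and 2.3% of all genes.

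Markers of other cell types were read in the same way. None of 7 leukocyte markers was called, and PTPRC, which defines leukocytes, was at 3.53 on both arrays. Among 7 endothelial markers CDH5, the cadherin of endothelium, was higher (14.3%, against 4.21% of all genes) and none was lower. CDH5 had 8.40 and 8.76, against 4.93 to 9.28 (median 5.54), while PECAM1, VWF and TEK were at 5.15 and 4.84, 5.05 and 4.81, and 3.92 and 4.57. Of 10 fibroblast markers THY1 and COL1A2 were higher (20%, against 4.21% of all genes) and LUM was lower (10%, against 2.3%), and DCN was at 3.22 and 3.48. The mean level of the endothelial list was 5.71 in UWB1.289, against 4.95 to 8.09 in the other lines, and that of the fibroblast list 5.46, against 4.80 to 7.54.

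Junction genes were called in both directions. CLDN1, a neighbour of CLDN16 on chromosome 3, was also highest in UWB1.289, with 13.17 and 13.21, against 4.66 to 13.01 (median 10.42). EFO21, the next line, was close behind it, so that CLDN1 was not counted above every other line. TMEM207, which lies beside CLDN16, stayed at background (4.31 and 4.18, difference -0.06). Of 16 adherens and tight junction genes, CLDN1, CLDN3, CLDN7, CLDN16, CGN and EPCAM were higher (37.5%, against 4.21% of all genes). CLDN10 was lower (6.25%, against 2.3%) and the lowest line (difference -1.54 ± 0.14). The list held 10 positive and 6 negative differences, with a median of 0.07.

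**Figure D3:**
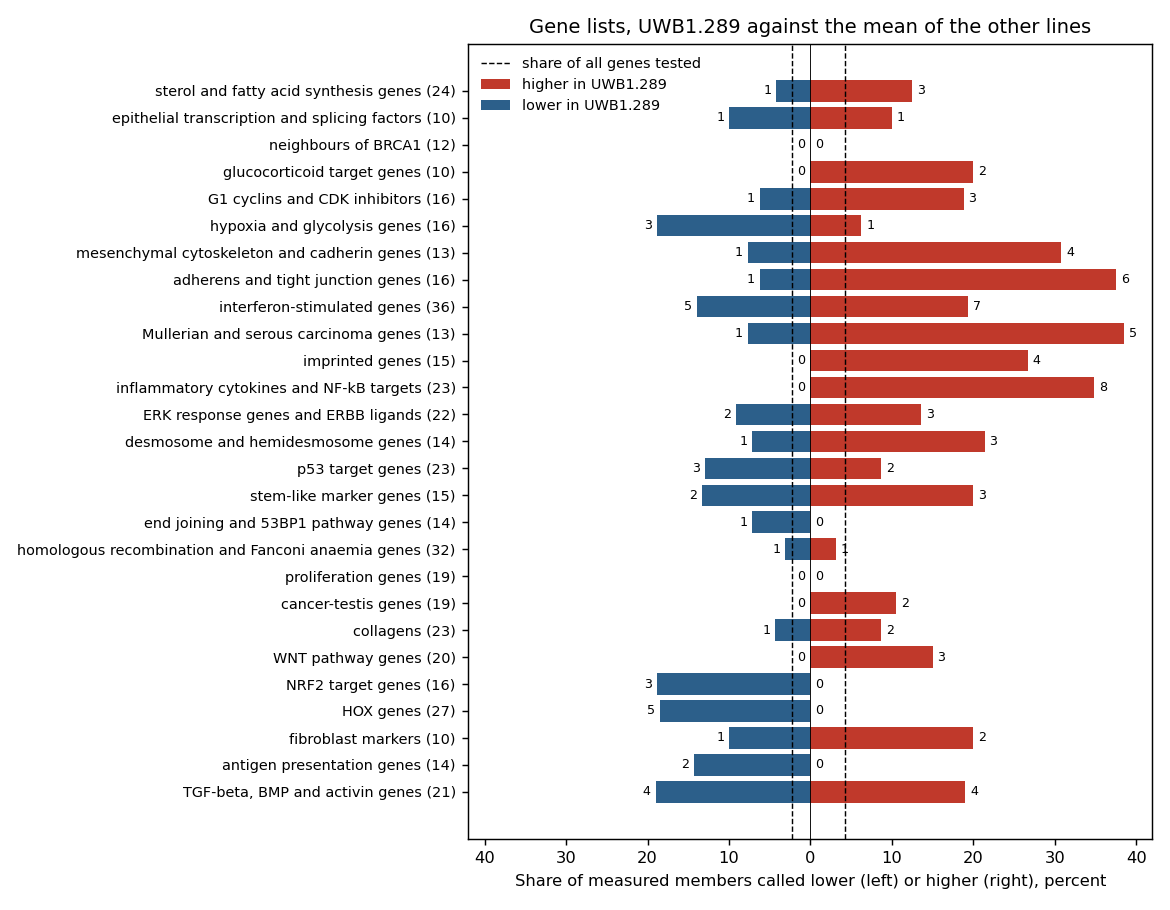
Share of the measured members of each list (number measured in brackets) called lower (left bars) or higher (right bars) in UWB1.289 than the mean of the other lines, in percent, with the number called beside each bar. Dashed lines mark the shares over all genes, 2.3% lower and 4.21% higher; lists are ordered by their median difference and hold 10 or more measured genes.

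Bone morphogenetic proteins (BMPs) signal through SMAD proteins to induce ID1, ID2 and ID3, inhibitors of differentiation, and are held in check outside the cell by noggin and gremlin. NOG, noggin, had 9.81 and 9.90 in UWB1.289, against 5.14 to 9.23 (median 6.96), and lay above all other lines with EFO21 next (difference 2.70 ± 0.11). GREM1, gremlin, had 9.75 and 10.16, against 5.35 to 11.16 (median 6.18), and ranked 4 of 28. CHRD, chordin, a further antagonist, had 5.57 and 5.90, against 5.70 to 7.01 (median 5.91), and ranked 27 (difference -0.27 ± 0.11, not called).

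Of the targets, some were lower. ID3 had 6.30 and 6.13 in UWB1.289, against 6.46 to 11.26 (median 8.73), and was the lowest of the 28 lines (difference -2.49 ± 0.11, limma adjusted p = 2.79e-20 between arrays, 0.879 between lines). ID2 had 5.56 and 5.50, against 5.27 to 10.47 (median 7.76), and ID1 had 8.51 and 8.35, against 7.90 to 12.07 (median 10.09). MSX2 and SMAD6, further BMP targets named after their values were seen, differed by -1.49 ± 0.13 and -1.25 ± 0.08. ID4 and BAMBI, looked up with them, ranked 18 and 19 of 28 and were not called (-0.77 ± 0.12 and -0.69 ± 0.16).

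Of the ligands, BMP7 was lower (5.20 and 5.14, against 4.92 to 10.30, median 6.18) and BMP4 higher (8.15 and 8.07, against 4.55 to 10.72, median 6.86), the second not without replicate 1 of UWB1.289 (0.997). Over 21 measured genes of the TGF-beta, BMP and activin list, 4 were higher (19%, against 4.21% of all genes) and 4 lower (19%, against 2.3%). Their median was -0.72, against -0.09 over all genes. Among 20 genes of the WNT pathway DKK1, SFRP1 and WNT7A were higher (15%, against 4.21% of all genes) and none was lower. The median of the list was nevertheless -0.40, and 14 of the 20 differences were negative. UWB1.289 was the lowest line in 7 of the 20, against 1516 of all 18377 genes. DKK1 and SFRP1 are secreted antagonists, and SFRP1 had 10.13 and 10.11, against 5.57 to 10.54 (median 6.61).

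**Figure D4:**
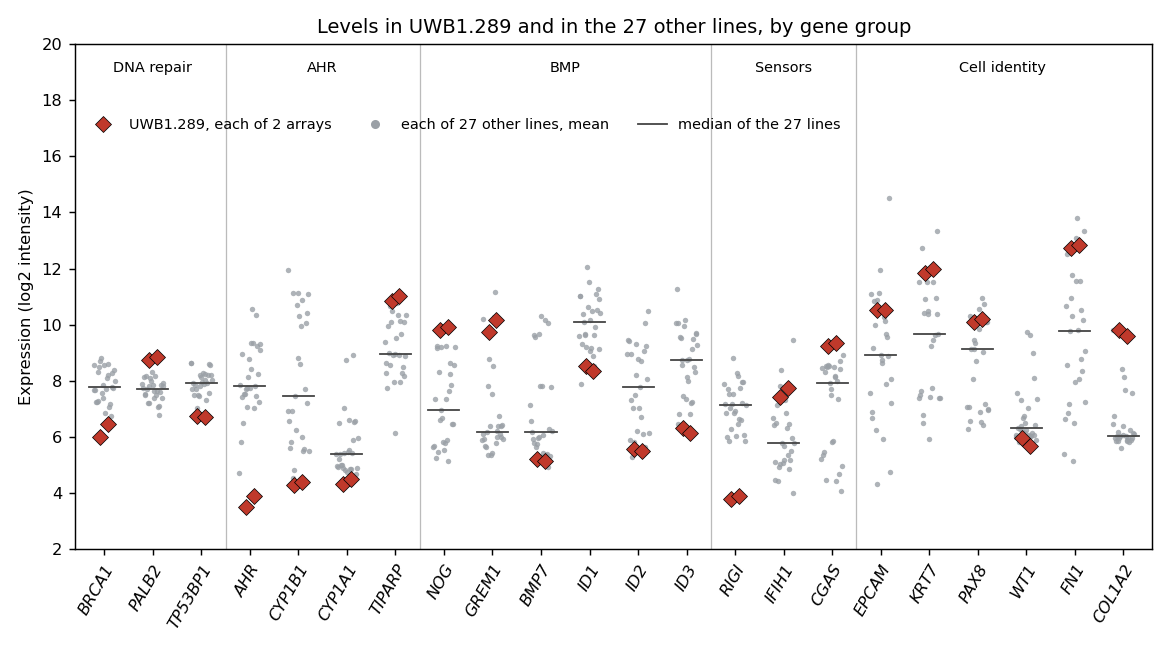
Expression (log2 intensity) of named genes of DNA repair, the AHR pathway, BMP signalling, nucleic acid sensors and cell identity. Diamonds are the 2 UWB1.289 arrays, grey points the 27 other lines and bars their medians; NOG lies above and ID3 below all other lines, and RIGI is 2.01 below the lowest of them.

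Inflammatory genes were higher in part. Of 23 cytokines and targets of NF-kB, 8 were higher (34.8%, against 4.21% of all genes) and none lower, and the median was 0.02. CXCL8, the neutrophil chemokine interleukin-8, had 10.14 and 10.33 in UWB1.289, against 5.20 to 10.48 (median 6.85), a difference of 3.22 ± 0.15. ICAM1, CXCL16 and IL1A differed by 2.15 ± 0.14, 1.99 ± 0.17 and 1.89 ± 0.18. TLR4, the receptor for bacterial lipopolysaccharide, was the highest of the 28 lines (8.68 and 8.49, against 3.57 to 8.19, median 4.36), in a choice made after values were seen.

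Interferon-stimulated genes were split, with 7 of 36 higher (19.4%, against 4.21% of all genes) and 5 lower (13.9%, against 2.3%). BST2 (tetherin) had 9.81 and 10.04, against 3.82 to 10.07 (median 6.45), and OAS1, an RNA sensor that activates RNase L, had 8.81 and 9.23, against 5.69 to 9.18 (median 6.95). RIGI, at background, was lower, as were IFIT2, IFIT3, IFIT5 and SAMD9. Further sensors were looked up after RIGI was seen. IFIH1 (MDA5), a sensor of the same family as RIGI, was higher (7.42 and 7.73, against 3.99 to 9.46, median 5.78), and MAVS, the adaptor that both use, differed by 0.24 and was not called. CGAS, the sensor of cytoplasmic DNA, was the highest of the 28 lines (9.24 and 9.33, against 4.08 to 8.92, median 7.92), while its partner STING1 differed by -0.24. Of 14 antigen presentation genes TAP1 and PSMB9 were lower (14.3%, against 2.3%), none was higher, and all 14 had negative differences (median -0.69).

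Components of the primary cilium, a sensory projection of the cell surface built by intraflagellar transport, were looked up after IFT88, TCTN2 and CCP110 were found below every other line. Of 50 measured genes 6 were lower (12%, against 2.3% of all genes) and 1 was higher (2%, against 4.21%). UWB1.289 was the lowest line in 12 of the 50, against 1516 of all 18377 genes. IFT88, a subunit of the transport complex, had 4.77 and 4.70, against 5.48 to 7.65 (median 6.53), and IFT81, its partner in that complex, had 5.26 and 5.96, against 5.98 to 7.72 (median 6.93). IFT27 had 5.93 and 5.46, against 6.22 to 7.69 (median 7.18), and the motor subunit KIF3A had 6.13 and 6.53, against 6.64 to 8.35 (median 7.48). All 4 were the lowest of the 28 lines, but without replicate 1 of UWB1.289 IFT81 and KIF3A missed the minimum difference (-0.94 and -0.98).

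TCTN2, of the transition zone at the base of the cilium, had 6.05 and 6.29, against 6.81 to 8.66 (median 7.72), and CCP110, which caps the centriole and holds back cilium growth, had 5.60 and 5.87, against 6.48 to 8.22 (median 7.54). TCTN3 was the lowest line as well but missed the minimum difference (-0.98 ± 0.06), and reached it under 4 alternatives, among them without replicate 2 of UWB1.289 (-1.06). IFT46 was the exception and the highest line, at 9.84 and 9.88, against 6.89 to 9.86 (median 8.77). The list was drawn up with 3 of its members known to be low, and UWB1.289 was the lowest line in many genes, so that its count is a description.

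Runs of neighbouring genes were followed along each chromosome by the median difference of 15 consecutive measured genes. The windows ran from -1.27 to 2.30, with -0.51 at percentile 1 and 0.62 at percentile 99. The lowest window ended at SNX13 and held the run on chromosome 7. The second, from BIN3 to STC1 on chromosome 8, had a median of -0.99. It held CHMP7, a subunit of the ESCRT-III complex, at 7.05 and 6.87, against 7.31 to 9.15 (median 8.25), and LOXL2, a lysyl oxidase, at 5.97 and 6.24, against 5.96 to 11.89 (median 7.93). UWB1.289 was the lowest line in 8 of the 15 genes there, 6 were called lower, and TNFRSF10A, a receptor for the death ligand TRAIL, was not (-0.18).

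The highest window held copies of SNORD116, a family of small nucleolar RNAs expressed from the paternal copy of chromosome 15. Of 20 copies measured 16 were higher, with a median of 1.68 and ranks of 1 to 5. Since the copies resemble each other, their probe sets may read the same RNA, and they count as 1 observation. The imprinted genes PEG10, MEST, NDN and GRB10 were also higher, 4 of 15 (26.7%, against 4.21% of all genes), and none was lower. The list as a whole was not raised, with 8 positive and 7 negative differences and a median of 0.04, against -0.09 over all genes. MEST was not called in RPMI lines only (0.86) or with HEY and HEYC2 merged (0.998).

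The next windows, on chromosome 19, held clusters of zinc finger genes with KRAB domains, repressors that bind repeated DNA. Those from ZNF506 to ZNF738 and from ZNF43 to ZNF726 had medians of 1.446 and 1.499, with 12 and 11 of 15 genes higher. ZNF257 had 6.59 and 6.70 in UWB1.289, against 2.54 to 6.26 (median 3.51), and ZNF91, which represses a family of retrotransposons, had 8.03 and 8.09, against 3.70 to 7.82 (median 6.75). At the end of chromosome 4 ZNF876P, ZNF732, ABCA11P, ZNF721 and PIGG were consecutive and each the highest of the 28 lines. High genes there were not only zinc fingers. The window from ZNF876P to SLC26A1 had a median of 0.98, with 7 of 15 genes higher, among them PIGG, GAK and TMEM175. The window from CTBP1 to POLN, also on chromosome 4 and without a zinc finger gene, had a median of 0.951, with 6 of 15 genes higher. ZNF732 had 6.28 and 6.61, against 3.56 to 5.70 (median 4.01).

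Over the genome 43 of 481 genes named ZNF with a number were higher (8.94%, against 4.21% of all genes) and 4 were lower, and their median difference was 0.03. On chromosome 19 the count was 33 of 234. The calls lay in clusters, and the median of the family was close to that of all genes. These genes are close relatives, and how far their probe sets read each other was not tested.

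Metallothioneins, small proteins that bind zinc and copper, form a cluster on chromosome 16, and were listed after their values were seen. Of 10 measured, 5 were higher (50%, against 4.21% of all genes) and none lower. MT1M had 10.84 and 10.70, against 4.92 to 10.87 (median 6.37), and MT1E had 10.997 and 10.920, against 5.10 to 10.82 (median 8.31). CAOV3 was as high as UWB1.289 in MT1M. MT1X differed by -0.11 and was not called. Of the 10 differences 9 were positive and 1 negative, with a median of 0.71, against -0.09 over all genes.

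**Figure D5:**
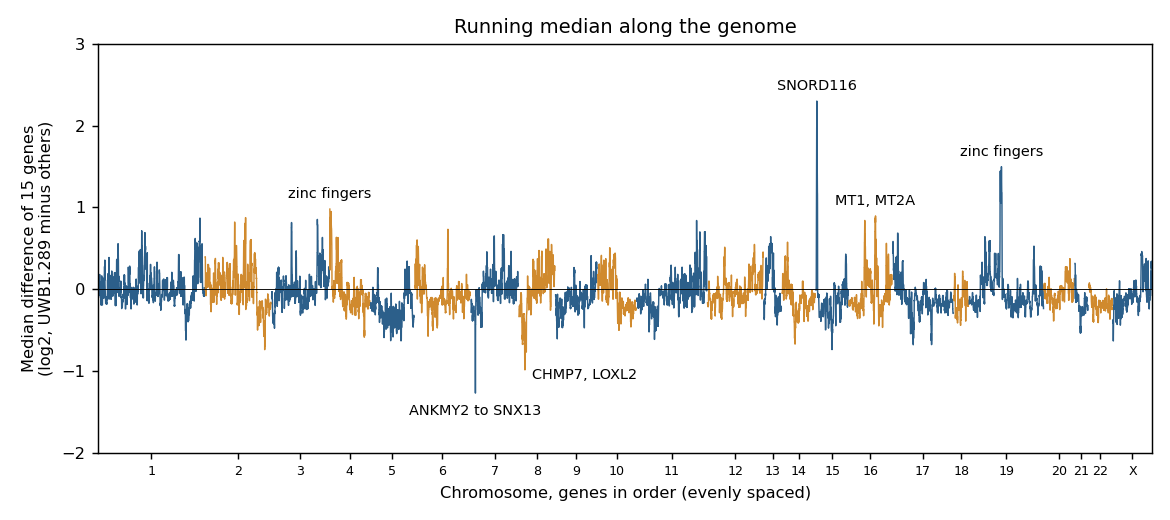
Median difference between UWB1.289 and the mean of the other lines (log2) over 15 consecutive measured genes, along chromosomes 1 to 22 and X with genes evenly spaced. The lowest point, at -1.27, ends at SNX13 on chromosome 7, and the highest, at 2.30, is the SNORD116 cluster on chromosome 15.

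Among further lists, 5 of 27 HOX genes were lower (HOXA2, HOXB2, HOXB6, HOXB9 and HOXC10) and none higher, with a median of -0.50. That is 18.5%, against 2.3% of all genes. HOXB2 was not called without replicate 1 of UWB1.289 (-0.95), nor HOXC10 without replicate 2 (-0.98). Of 8 transporters that export drugs ABCB1, ABCC2 and ABCC4 were lower (37.5%, against 2.3% of all genes). ABCB1, the multidrug pump, had 4.36 and 4.42, against 4.44 to 9.25 (median 4.88), so that most lines were near background and the difference came from a few that expressed it. Of 16 targets of NRF2, the regulator of the oxidant response, AKR1C1, AKR1C2 and AKR1B10 were lower (18.8%, against 2.3%) and none was higher. ABCC2 was not called without replicate 2 (-0.88), nor AKR1C1 without replicate 1 (-0.87).

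CCND2, a G1 cyclin, had 10.28 and 10.30 in UWB1.289, against 4.77 to 12.32 (median 6.27). CCND1 and CCNE1 were higher by 1.03 ± 0.16 and 1.06 ± 0.10 (CCNE1 at 0.98 without replicate 2). Of 16 G1 cyclins and CDK inhibitors these 3 were higher (18.8%, against 4.21% of all genes). CDKN1A, a CDK inhibitor, was lower (6.25%, against 2.3%). Of 15 stem-like marker genes, PROM1, SOX2 and IGF2BP1 were higher (20%, against 4.21% of all genes). ALDH1A1 and ALDH1A3 were lower (13.3%, against 2.3%), and 7 differences were positive and 8 negative. ALDH1A1, an aldehyde dehydrogenase used as a marker of stem-like cells, was the lowest line (3.46 and 4.04, against 3.99 to 12.40, median 5.15). IGF2BP1, a fetal RNA-binding protein, was higher (9.40 and 9.78, against 5.05 to 9.61, median 6.45). Of 22 ERK response genes and ERBB ligands, EGR1 and IER3 were lower (9.09%, against 2.3% of all genes). DUSP5, ETV5 and TGFA were higher (13.6%, against 4.21%).

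Some of the widest differences from the mean belonged to genes that other lines also expressed, and they were named after their values were seen. TNFSF18, the ligand of the T cell receptor GITR, had 9.76 and 9.94 in UWB1.289, against 3.16 to 9.79 (median 3.64), with TYKNU next (difference 5.72 ± 0.18). TMEM71 had 9.05 and 9.27, against 3.208 to 9.001 (median 3.65), with HEY next. MAL, a lipid raft protein of apical membranes, had 12.22 and 12.36, against 4.85 to 13.11 (median 6.48), and CRYAB, a small heat shock protein, had 11.48 and 11.41, against 4.08 to 11.53 (median 6.27), both with PEO1 above or level with UWB1.289. None of the 4 was counted above every other line, although their differences exceeded those of most genes that were.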

How the data were processed

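The deposited values are log2 expression levels that the authors made by RMA with affy 1.42.3, per the labels. RMA subtracts background, equalises the arrays' distributions and summarises probes, so that low values are compressed. Of 28869 probe sets 19310 name 1 gene, and for each of 18377 genes 1 probe set, the brightest on average, was kept. Genome build and platform annotation of the arrays were not given in the sources used here, and RefSeq served for names and gene order.

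UWB1.289 was compared with the mean of the other 27 line means by limma 3.58.1 (empirical Bayes with trend and robust settings, Benjamini-Hochberg over all genes, adjusted p under 0.05 and a difference of at least 1), first over 53 arrays and then over 28 line means. Named genes were the 15 widest gaps each way, up to 4 genes of each list with the largest difference and the lineage markers, while the AHR, cilium, annexin, BMP, sensor and metallothionein lists, the runs of neighbours and other genes were chosen after values were seen. Members and lists were chosen with earlier results of these data known. Replicate numbers did not pair arrays across lines (correlations of duplicate differences -0.32 to 0.38 over 300 pairs of lines). The fits were tested on simulated data. Alternatives tried were all 56 arrays, other summaries of probe sets, a filter on low values, a further quantile normalization, RPMI lines only, HEY and HEYC2 merged, other thresholds, a replicate block and leaving out each line or UWB1.289 array. The number of arrays limits the precision.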

Additional observations from a re-analysis of the deposited data

How the results depend on the processing

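Of the 774 genes higher and 423 lower than the mean of the other lines, other settings gave 690 to 859 and 361 to 493, except that without a minimum difference 4152 were higher and 5085 lower. With the numbers of the arrays as a replicate block 773 were higher and 423 lower, and no named gene changed its call. Beyond the spread between lines, 15 genes were higher and 5 lower, against 8 and 3 with all 56 arrays and 34 and 3 among RPMI lines only. A filter on low values (highest line mean at or above the median of all values, 12597 genes) left 5 of the 15, since it took the other 10 out of the test, and all 5 of the lower genes. Above and below every other line were 31 and 18 genes, 215 and 88 when the other lines were those in RPMI alone (fewer lines to exceed), 416 and 668 with no minimum gap and 6 and 7 with a gap of at least 1 log2 unit. Leaving out a line or a UWB1.289 array gave 31 to 66 above and 18 to 44 below, with the highest counts from a single UWB1.289 array (66 and 37 without replicate 1, 43 and 44 without replicate 2). Between lines it gave 13 to 22 higher and 5 to 7 lower. Leaving one out gave 690 to 851 higher and 414 to 493 lower than the mean.

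Of 185 genes named, 29 lost their call under at least 1 setting, 7 gained one and none changed sign while called. With all 56 arrays 7 lost it, among them BRCA1, ABCC4, KIF3A and MECOM by limma's test (adjusted p = 0.0556, 0.0572, 0.0622 and 0.0662). Without COLO720E the differences of CCND1 and KRT8 were 0.91 and 0.91, without OVCA432 that of BMP4 was 0.94, without OVCAR2 that of LUM was -0.91 and without OVCA420 that of ABCC2 was -0.92. In RPMI lines only ABCB1, ARNT2, IER3, IFT46, MAP3K7CL, MECOM, MEST, MUC16 and SMAD6 fell under the minimum. Medium, serum and line cannot be told apart, and 2 arrays of 1 line limit the precision of every value.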

Other observations

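Genes of meiosis were noticed among those highest in UWB1.289, after the values were seen and without a test of the group. RNF212, a factor of crossover, had 8.68 and 8.81 in UWB1.289, against 4.94 to 7.72 (median 5.29) in the other lines. MAJIN, which ties telomeres to the nuclear envelope, had 5.41 and 5.87, against 3.96 to 5.12 (median 4.37), and ZCWPW1, a reader of the histone marks at sites of meiotic breaks, had 6.22 and 6.25, against 4.31 to 5.67 (median 5.06). In all 3 both UWB1.289 arrays lay above the 27 line means. F2R, the thrombin receptor, and LITAF, a lysosomal membrane protein, ranked 27 and 28 of the 28 lines without lying below all others by the minimum gap, at 4.86 and 4.80, against 4.14 to 10.10 (median 7.95), and at 7.33 and 7.54, against 7.54 to 11.21 (median 10.10).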
